A study of Ocimum americanum with 4 samples.

Results

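The protein phosphatases 2C (PP2Cs) of *Ocimum americanum* var. *pilosum*, a chilling-sensitive basil, were taken as the unigenes whose best Swiss-Prot match carries "protein phosphatase 2C" in its description. This rule gave 106 of the 42816 assembled unigenes, of which 24531 had any Swiss-Prot match. RNA had been sequenced from leaves of 30-day-old plants in 4 libraries. Both control libraries came from untreated plants grown, by the labels, at 21 °C (the study's methods give a slightly different growth temperature), and both chilling libraries came from plants of the same variety that had been moved to 4 °C for 12 h. The hour of day at which the leaves were collected is not given for either group, so the cold and any difference in collection time cannot be told apart. The replicates are called biological and were harvested together. With 2 libraries per group, and no statement of how many plants each library held, the tests measure the spread between these libraries.

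PP2Cs are metal-dependent enzymes that remove phosphate from serine and threonine, and plants carry far more of them than animals do. In Arabidopsis they are sorted into clades lettered from A onwards. Clade A members are the co-receptors of abscisic acid (ABA). They hold the SnRK2 kinases of ABA signalling inactive until a hormone-bound receptor of the PYR/PYL family occupies the phosphatase. Other clades act on stress-activated MAP kinases, on the proton pumps of the plasma membrane, on stem cell signalling and on the light-harvesting antenna of the chloroplast.

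Of the 106 unigenes, 75 were matched to Arabidopsis proteins and 31 to rice proteins. The matches fell on 69 proteins, 44 of Arabidopsis and 25 of rice, and 26 of these proteins were hit by more than 1 unigene. Altogether 63 unigenes shared their protein with another, at most 3 on a protein, and 23 stood beside a unigene with the same match in the numbering of the assembly. Such unigenes may be gene copies or pieces of a single gene, and reads may have been divided between them, so the names below are those of the best match and not of a proven ortholog. No unigene had ABI1, ABI2, AHG1 or any of HAI1 to HAI3 as its best match. The Arabidopsis matches were placed in clades by their Swiss-Prot numbers, and the rice matches were kept as a group of their own.

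The labelled tissue was checked against leaf genes. The single unigene for the small subunit of Rubisco was at 13829 and 13824 FPKM (fragments per kilobase of transcript, scaled to the mapped fragments of the library) in the controls and at 10256 and 10265 FPKM after chilling. The 17 unigenes for chlorophyll a-b binding proteins, the antenna proteins, summed to 27891 and 27770 FPKM in the controls and to 4910 and 4888 FPKM after chilling. Summed over all unigenes, FPKM was 875599 and 874864 in the controls and 773457 and 772255 after chilling. Rescaling each library to the same sum moved the median log2 change of all unigenes up by 0.15, and 9 of the 89 tested PP2Cs changed sign under it, none of them called and all with a log2 change between -0.16 and 0 before rescaling. The deposited values are not counts, and read totals and unigene lengths were not used here, so no counting error is given for values near 1 FPKM.

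As a family the PP2Cs were expressed above the typical unigene. Their mean level over the 4 libraries had a median of 11.2 FPKM, against 3.01 FPKM over all unigenes and 7.20 FPKM over those with a Swiss-Prot match. The summed level of the 106 unigenes was 1860 and 1843 FPKM in the controls and 2362 and 2358 FPKM after chilling, a ratio of 1.27. The sum over all unigenes had a ratio of 0.883 in the same libraries. In bulk leaves, a change in the make-up of cell types and a change of RNA per cell cannot be told apart.

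Of the 106 unigenes, 89 had a mean of at least 1 FPKM and were tested with limma on log2(FPKM + 1), fitted over all 33036 unigenes that passed this filter. A unigene was called at a Benjamini-Hochberg adjusted p of at most 0.01 if the means of the groups also differed at least 2-fold. By this rule 21 PP2Cs were called. The background share of calls among all tested unigenes was 25.6%, with 11.9% called higher and 13.8% called lower after chilling. Among the PP2Cs, 15 of 89 (16.9%) were called higher and 6 of 89 (6.74%) lower. The share called in either direction was thus close to the background, while higher calls outnumbered lower ones among the PP2Cs and not among all unigenes. With libraries rescaled to equal sums (TPM), 22 PP2Cs were called higher and 5 lower, so that higher calls made up 81.5% of the calls in place of 71.4%. Over all unigenes the same rescaling moved this share from 46.3% to 58.5%.

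The median log2 change of the tested PP2Cs was 0.20, against -0.004 over all tested unigenes and 0.01 over those with a Swiss-Prot match. Both chilling libraries lay above both controls for 43 tested PP2Cs (background 41.7%) and below both for 34 (background 40.3%), and for 12 the groups overlapped. Among the 68 tested PP2Cs that were not called, 17 had a higher and 12 a lower level at an adjusted p of at most 0.01 but stayed under the 2-fold threshold. The other 39 had an adjusted p above 0.01, and 9 of these had a ratio past 2-fold.

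**Figure D1:**
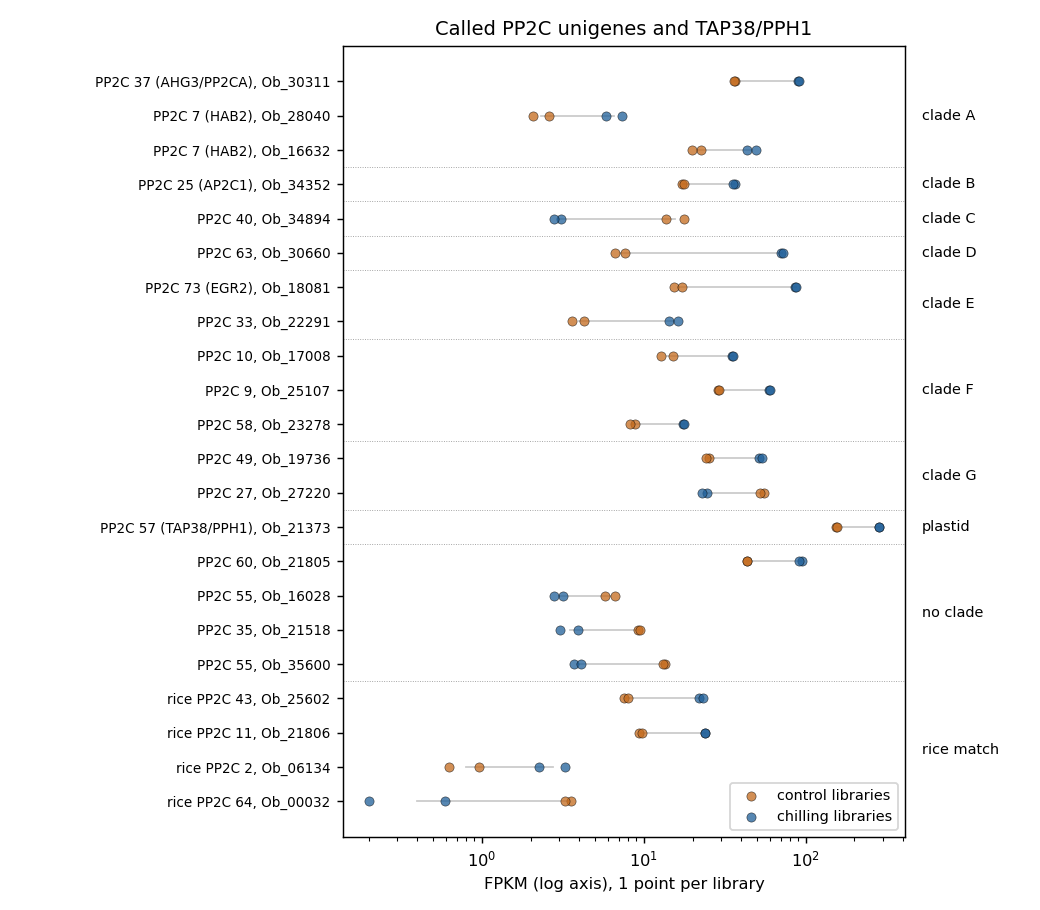
FPKM in each library (log axis) of the 21 called PP2C unigenes and of TAP38/PPH1, sorted by clade, with control libraries in orange, chilling libraries in blue and a grey line between the group means. In every row the libraries of the groups stand apart, from PP2C 63 (7.67 and 6.66 against 70.5 and 72.7 FPKM) to the weakly expressed rice match 64 (3.54 and 3.28 against 0.20 and 0.59 FPKM).

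Clade A, the ABA co-receptors, held 8 unigenes, 7 of them tested. After chilling, 3 (42.9%, against 11.9% of all tested unigenes) were called higher and none lower (background 13.8%). The median log2 change of the tested clade A unigenes was 0.87, against -0.004 over all tested unigenes. Their summed level was 106 and 99.5 FPKM in the controls and 205 and 207 FPKM in the chilling libraries, a ratio of 2.00. The highest-expressed of them was Ob_30311, matched to PP2C 37 (AHG3/PP2CA), a phosphatase that in Arabidopsis restrains ABA responses in seeds and guard cells. It was listed at 36.5 and 35.9 FPKM in the controls and at 89.8 and 91.1 FPKM after chilling. The chilling libraries were far above the controls, and the rise was 2.50-fold (log2 change 1.30, SE 0.03, adjusted p 4.4e-07 by limma). A second unigene with the same match, Ob_06507, was listed at 0 in both controls and at 0.70 and 0.69 FPKM after chilling, and its mean was too low for the test.

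HAB1 and HAB2, a close pair of co-receptors in Arabidopsis, were the best matches of 6 unigenes. Ob_16632, matched to PP2C 7 (HAB2), was at 22.52 and 19.96 FPKM in the controls and at 43.28 and 49.03 FPKM after chilling, a rise of 2.17-fold (log2 change 1.08, SE 0.08, adjusted p 5.3e-05 by limma). Ob_28040, also matched to HAB2, was at 2.60 and 2.06 FPKM in the controls and at 7.31 and 5.81 FPKM after chilling. This was a rise of 2.82-fold with an adjusted p of 0.0011 by limma, but the call was lost whichever of the 4 libraries was left out, with adjusted p from 0.017 to 0.030. Ob_16631, numbered next to Ob_16632 and matched to HAB2, was at 3.05 and 2.99 FPKM in the controls and at 6.43 and 4.70 FPKM after chilling. It was not called (ratio 1.84, adjusted p 0.011 by limma).

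The unigenes matched to PP2C 16 (HAB1) did not move alike. Ob_36826 was at 16.5 and 14.6 FPKM in the controls and at 29.02 and 29.34 FPKM after chilling (ratio 1.88, adjusted p 9.1e-05 by limma), just under the 2-fold threshold. Ob_10434 was at 6.10 and 4.49 FPKM against 10.9 and 9.47 FPKM (ratio 1.92, adjusted p 0.0032 by limma). Both were called higher once the libraries were rescaled to equal sums, as was Ob_16631, and Ob_36826 also when control replicate 1 was left out (log2 change 0.96, adjusted p 0.0033). Ob_30597, the third HAB1 match, was at 18.9 and 19.5 FPKM in the controls and at 17.3 and 16.9 FPKM after chilling (ratio 0.889, adjusted p 0.061 by limma), and its log2 change of -0.16 became 0.01 after rescaling to equal sums. Before rescaling, its log2 change had a 95% interval from -0.31 to -0.01, which does not overlap that of Ob_36826, from 0.69 to 1.05. In the wider NCBI protein database, Ob_36826, Ob_10434, Ob_16631 and Ob_16632 all had as their best match a tomato protein described as a homolog of ABI2, so that these 4 unigenes may come from fewer genes.

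KEGG's orthology entry for the PP2C of ABA signalling, K14497, was assigned to 5 unigenes, all tested. Of these, 2 (40%, against 11.9% of all tested unigenes) were called higher and none lower. The one outside clade A was Ob_34982, matched to rice PP2C 6, which was at 41.8 and 39.5 FPKM in the controls and at 55.96 and 54.15 FPKM after chilling (ratio 1.35, adjusted p 2.6e-04 by limma). Its groups did not overlap, but the difference was under 2-fold.

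The other components of ABA signalling were counted from lists of Swiss-Prot descriptions. ABA receptors had 16 unigenes, of which 13 were tested, with 3 called higher and 1 lower and a median log2 change of -0.01 (0.13 after rescaling to equal sums). The receptor with the largest rise was Ob_21835, matched to PYL9, at 16.4 and 18.2 FPKM in the controls and at 114 and 116 FPKM after chilling (log2 change 2.67, SE 0.05, adjusted p 1.3e-07 by limma). Its neighbour Ob_21834, with the same match, rose from 25.7 and 27.4 to 73.69 and 77.01 FPKM, and Ob_21462, matched to PYL4, fell from 21.7 and 21.9 to 7.60 and 7.34 FPKM.

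The list of SnRK2 kinases had 12 tested unigenes, of which none was called higher and 2 lower, with a median log2 change of -0.22. It was drawn by family name and was not restricted to the SnRK2s that clade A phosphatases hold inactive. Both lower calls, Ob_20812 and Ob_38690, were matched to SAPK2. Ob_20812, matched to rice SAPK2, fell from 75.02 and 77.37 to 30.7 and 31.5 FPKM (log2 change -1.27, SE 0.04, adjusted p 8.9e-07 by limma). Ob_32610 was matched to SRK2E (OST1), the SnRK2 of guard cell closure in Arabidopsis. Its level was 56.6 and 58.8 FPKM in the controls and 48.2 and 44.6 FPKM after chilling. The ratio of 0.804 had an adjusted p of 0.0018 by limma but stayed under the 2-fold threshold, so Ob_32610 was not called. Of the 9 tested unigenes for the ABF and ABI5 transcription factors, which SnRK2s activate, none was called. They were all slightly positive, with log2 changes from 0.01 to 0.37.

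All 3 unigenes for S-type anion channels were called lower. SLAC1, the guard cell channel that SnRK2s open, was the match of Ob_33022. This unigene was at 9.93 and 9.67 FPKM in the controls and at 4.57 and 4.93 FPKM after chilling (log2 change -0.91, SE 0.11, adjusted p 4.1e-04 by limma). The other two, both matched to SLAH3, were at 1.96 and 1.93 against 0.57 and 0.28 FPKM (Ob_03322) and at 3.90 and 4.63 against 0.17 and 0.41 FPKM (Ob_21659). Over these lists, the calls were thus 3 higher and 1 lower of 13 receptors and 3 higher of 7 clade A phosphatases. They were 2 lower of 12 kinases, none of 9 transcription factors and 3 lower of 3 channels. The background was 11.9% higher and 13.8% lower. The kinase and channel lists were drawn by name and were not restricted to members of the ABA pathway. No test was made between these lists, and the kinases' share was close to the background.

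**Figure D2:**
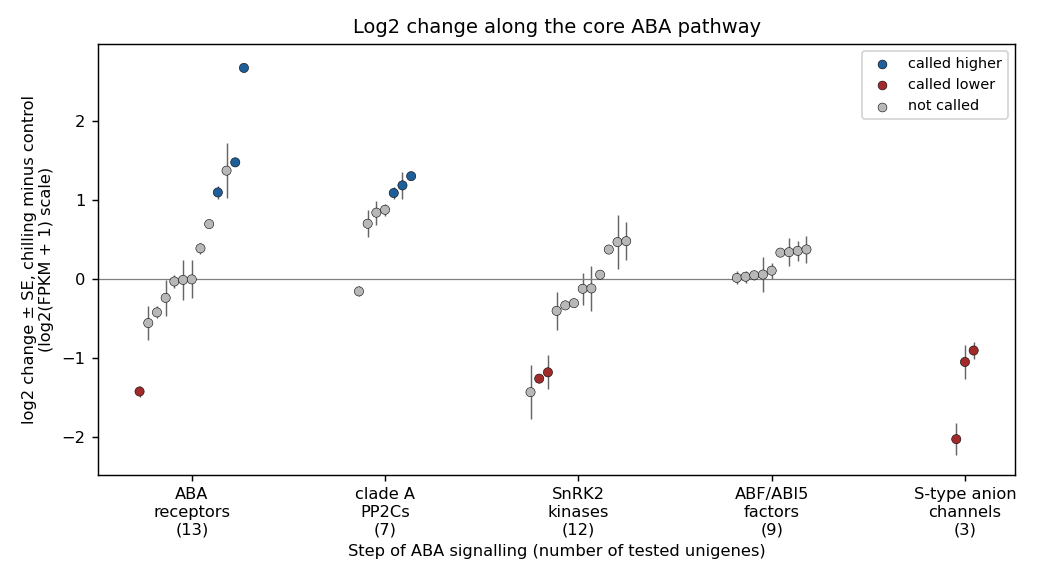
Log2 change after chilling (log2(FPKM + 1) scale, with its standard error) of each tested unigene in the lists for the steps of ABA signalling. Calls are in blue (higher) and red (lower), and the kinase and channel lists were drawn by name. The clade A unigenes other than Ob_30597 lie between 0.70 and 1.30, while the kinases range from -1.44 to 0.47 and the 3 channels lie at or below -0.91.

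Clade E contained 11 unigenes, of which 10 were tested, with a median log2 change of 0.22. Of these, 2 (20%, against 11.9% of all tested unigenes) were called higher and none lower (background 13.8%). The EGR phosphatases of this clade restrain growth under drought in Arabidopsis, and EGR2 there also binds the kinase OST1 and holds back its activity in the absence of cold. Ob_18081, matched to PP2C 73 (EGR2), was at 15.5 and 17.3 FPKM in the controls and at 85.9 and 87.7 FPKM after chilling. This was the second largest log2 change among the tested PP2Cs, a rise of 5.30-fold (log2 change 2.34, SE 0.06, adjusted p 3.6e-07 by limma). The other EGR2 match, Ob_41668, was at 1.60 and 1.57 FPKM in the controls and at 0.33 and 0.32 FPKM after chilling, too low on average for the test. Ob_41668 was called lower once libraries were rescaled to equal sums (log2 change -0.98), and also without the filter on mean FPKM (-0.96).

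The unigenes matched to PP2C 34 (EGR1) were not called. Ob_25812 was at 40.2 and 36.5 FPKM in the controls and at 34.8 and 29.1 FPKM after chilling (ratio 0.832, adjusted p 0.042 by limma), and Ob_03068 was at 1.98 and 1.94 FPKM against 0.67 and 0.88 FPKM (ratio 0.395, adjusted p 0.015). The 95% interval of the log2 change of Ob_25812, from -0.48 to -0.04, lay apart from that of Ob_18081, from 2.19 to 2.48. In the wider NCBI database, however, the best matches of Ob_25812 and Ob_03068 were described as PP2C 73 and PP2C 73-like. This is the number that Swiss-Prot gives to EGR2, so the name EGR1 rests on the Swiss-Prot match alone. The second clade E call was Ob_22291, matched to PP2C 33, which rose from 4.30 and 3.62 to 14.4 and 16.3 FPKM, or 3.87-fold (log2 change 1.72, SE 0.12, adjusted p 3.7e-05). Its neighbour Ob_22290, with the same match, was at 5.45 and 5.35 FPKM in the controls and at 9.78 and 11.5 FPKM after chilling, a log2 change of 0.86 that was not called.

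Clade D held the tested PP2C with the largest log2 change. Phosphatases of this clade remove phosphate from the regulatory end of the plasma membrane proton pump in Arabidopsis, and are themselves inhibited by SAUR proteins when auxin promotes growth. Ob_30660, matched to PP2C 63, was at 7.67 and 6.66 FPKM in the controls and at 70.5 and 72.7 FPKM after chilling. The 9.99-fold rise (log2 change 3.15, SE 0.07, adjusted p 2.4e-07 by limma) put it at percentile 99.5 of all tested unigenes. A rice match, Ob_03686, had the same best match in the wider NCBI database and was at 1.12 and 1.22 FPKM in the controls and at 2.77 and 2.49 FPKM after chilling, with an adjusted p of 0.011.

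The other tested clade D unigenes were not called, and their log2 changes ran from -0.81 to 0.21. Of the 3 matched to PP2C 38, which in Arabidopsis dampens immune signalling by dephosphorylating the kinase BIK1, Ob_21782 was at 12.5 and 14.5 FPKM in the controls and at 7.52 and 7 FPKM after chilling (log2 change -0.81, adjusted p 6.3e-04 by limma). The summed level of clade D, Ob_30660 included, went from 48 and 45.5 to 104 and 105 FPKM. The difference of Ob_30660 alone, 64.4 FPKM between the group means, was larger than that of the clade sum. The other clade D unigenes together were thus lower after chilling.

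Among the clade's partners, the list for plasma membrane ATPases also caught 24 calcium pumps. After these were set aside, a split made once the values had been seen, 27 proton pump unigenes were left, of which 21 were tested, with 1 called higher and 2 lower and a median log2 change of 0.37. The higher one, Ob_23415, matched to PMA4, rose from 36.01 and 39.13 to 85.6 and 85.0 FPKM. SAUR-type proteins changed in both directions, with 8 of 24 tested unigenes (33.3%) called higher and 10 (41.7%) lower. Over all tested unigenes, for comparison with both lists, 11.9% were called higher and 13.8% lower.

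Clade B contained 3 unigenes. The AP2C phosphatases of this clade inactivate stress-responsive MAP kinases in Arabidopsis. Ob_34352, matched to PP2C 25 (AP2C1), rose from 17.1 and 17.7 to 36.6 and 35.5 FPKM, or 2.07-fold (log2 change 1.01, SE 0.05, adjusted p 1.1e-05 by limma). A second AP2C1 match, Ob_23240, was at 2.84 and 3.47 FPKM in the controls and at 2.69 and 1.77 FPKM after chilling, and Ob_28341, matched to PP2C 14 (AP2C4), was at 18.3 and 20.2 against 16.3 and 14.8 FPKM. Neither was called. In the wider NCBI database the best match of Ob_34352 was described as PP2C 30-like and that of Ob_23240 as PP2C 25-like. The name AP2C1 for Ob_34352 thus rests on the Swiss-Prot match alone. Of the 37 tested MAP kinase unigenes, 6 (16.2%) were called higher and 7 (18.9%) lower, against 11.9% and 13.8% of all tested unigenes. The largest rise among them was in Ob_31782, matched to MPK3, a kinase of stress and wound signalling, from 3.10 and 2.71 to 39.2 and 40.7 FPKM (log2 change 3.39, adjusted p 3.9e-07 by limma).

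The highest-expressed PP2C of the leaf was Ob_21373, matched to PP2C 57 (TAP38/PPH1), the chloroplast phosphatase that returns the antenna from photosystem I to photosystem II by dephosphorylating light-harvesting proteins. It was at 154 and 156 FPKM in the controls and at 282 and 285 FPKM after chilling. The ratio of 1.83 had an adjusted p of 2.0e-07 by limma and a 95% interval of the log2 change from 0.82 to 0.92, under the 2-fold threshold. It was called higher after rescaling to equal sums (log2 change 1.05). The opposing kinase, STN7, was the match of Ob_23018, which fell from 193 and 192 to 28.4 and 27.5 FPKM (log2 change -2.74, SE 0.03, adjusted p 1.5e-08 by limma).

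In control leaves the STN7 unigene was thus listed above the TAP38 unigene, and after chilling the TAP38 unigene was far above the STN7 one, both on the FPKM scale, which is per length. STN8, the related kinase of the photosystem II core, was the match of Ob_31028, at 204 and 200 FPKM in the controls and at 216 and 209 FPKM after chilling, and it was not called (ratio 1.05). The transcripts of the antenna proteins, the substrates of this pair, were in the chilling libraries at the sums given above. No unigene had PBCP, the phosphatase that opposes STN8, as its best match.

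Clade F held 11 unigenes, all tested, with a median log2 change of 0.44. Of these, 3 (27.3%, against 11.9% of all tested unigenes) were called higher and none lower (background 13.8%). Ob_17008, matched to PP2C 10, rose from 12.7 and 15.1 to 35.2 and 35.7 FPKM, or 2.55-fold (adjusted p 2.7e-05 by limma). Ob_25107, matched to PP2C 9, rose from 28.8 and 29.3 to 59.5 and 59.8 FPKM, or 2.06-fold. Ob_23278, matched to PP2C 58, rose from 8.80 and 8.18 to 17.6 and 17.8 FPKM, or 2.08-fold, a call that was lost when the 2-fold change was asked on the log2(FPKM + 1) scale (log2 change 0.98). In each of these the libraries of the groups stood apart.

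The other clade F unigenes were not called, and 4 of the 8 had lower and 4 higher levels after chilling. Ob_32298, matched to PP2C 76 and the highest-expressed of the clade, was at 65.8 and 66.3 FPKM in the controls and at 52.7 and 48.9 FPKM after chilling (log2 change -0.37, adjusted p 4.9e-04 by limma). Ob_26042, matched to PP2C 11, was at 26.39 and 25.95 against 15.2 and 15.1 FPKM (log2 change -0.75). Ob_31508 and Ob_31507, neighbours matched to PP2C 59 (WIN2), which in Arabidopsis binds a bacterial effector, had ratios of 1.77 and 1.36, on the side of the called unigenes.

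Clade G had 6 tested unigenes with 1 called in each direction (16.7% each, against 11.9% higher and 13.8% lower over all tested unigenes). Ob_27220, matched to PP2C 27, was the strongest of the clade in control leaves. It fell from 55.0 and 52.3 to 24.5 and 22.9 FPKM (ratio 0.442, log2 change -1.15, SE 0.05, adjusted p 5.8e-06 by limma), and after rescaling to equal sums its ratio no longer passed 2-fold (log2 change -0.98). In Arabidopsis this phosphatase, also known as PP2CG1, favours salt tolerance. Ob_17324, with the same match, was at 7.43 and 7.85 FPKM in the controls and at 12.1 and 11.1 FPKM after chilling (log2 change 0.54), and was not called. Ob_19736, matched to PP2C 49, rose from 25.3 and 24.3 to 51.8 and 53.6 FPKM, or 2.13-fold (adjusted p 4.4e-06 by limma).

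Clade C, which contains POLTERGEIST and its relatives, regulators of stem cell maintenance in Arabidopsis, held 8 unigenes. Of these 6 were tested, with none called higher and 1 lower (16.7%, against 13.8% of all unigenes), and the median log2 change was -0.45. Their summed level was 58.2 and 60.7 FPKM in the controls and 34.2 and 33.8 FPKM after chilling, a ratio of 0.572. The called one was Ob_34894, matched to PP2C 40, at 13.6 and 17.6 FPKM in the controls and at 3.10 and 2.80 FPKM after chilling (ratio 0.189, log2 change -2.07, SE 0.14, adjusted p 3.6e-05 by limma).

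The neighbours of Ob_34894 with the same match were not called. Ob_34893 was at 17.7 and 18.5 FPKM in the controls and at 11.6 and 10.8 FPKM after chilling (log2 change -0.65, adjusted p 4.6e-04 by limma), and Ob_34895 was at 1.63 and 1.60 against 2.57 and 1.99 FPKM. Ob_21623, matched to PLL4, a relative that shapes leaves in Arabidopsis, was at 8.04 and 7.05 FPKM in the controls and at 4.31 and 4.33 FPKM after chilling (log2 change -0.68, adjusted p 0.0030 by limma). It was under the 2-fold threshold.

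KAPP, a phosphatase that binds receptor kinases such as the CLAVATA1 receptor, was the match of 2 unigenes. Ob_29809 was at 13.5 and 14.2 FPKM in the controls and at 16.7 and 17.2 FPKM after chilling, a ratio of 1.22 that was not called (adjusted p 0.015 by limma). Ob_09812 was below the filter, at 0.45 and 0.88 FPKM in the controls and at 0.68 and 1.34 FPKM after chilling.

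**Figure D3:**
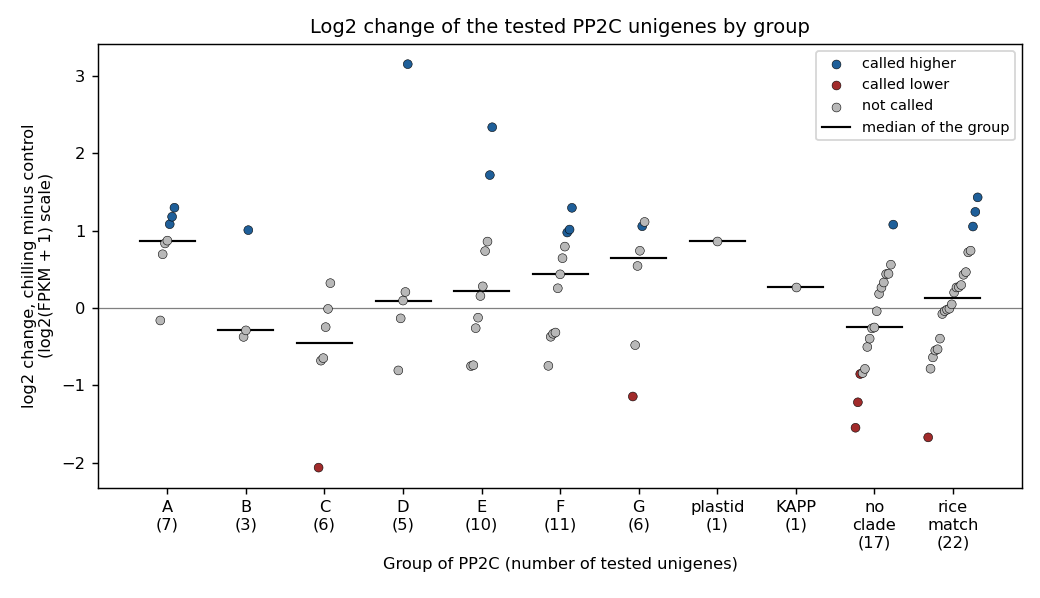
Log2 change after chilling (log2(FPKM + 1) scale) of the 89 tested PP2C unigenes by group, with calls in blue (higher) and red (lower), uncalled unigenes in grey and the median of each group as a bar. The group medians run from -0.45 in clade C to 0.87 in clade A, and the 2 points that stand highest are PP2C 63 in clade D (3.15) and EGR2 in clade E (2.34).

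The 19 Arabidopsis matches with no clade given had 17 tested unigenes, with a median log2 change of -0.25. Of these, 1 (5.88%) was called higher and 3 (17.6%) lower, against 11.9% and 13.8% of all tested unigenes. The higher one was Ob_21805, matched to PP2C 60, which rose from 43.5 and 43.5 to 95.3 and 90.6 FPKM (2.14-fold, adjusted p 1.5e-06 by limma). Its neighbour in the assembly's numbering, Ob_21806, was matched to rice PP2C 11 and rose from 9.30 and 9.72 to 23.9 and 23.9 FPKM (2.51-fold). Of the remaining PP2C 60 matches, Ob_24255 was at 55.4 and 55.1 FPKM in the controls and at 67.5 and 65.6 FPKM after chilling, a log2 change of 0.26 that was not called.

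PP2C 55 was the match of 3 unigenes. Ob_35600 fell from 13.5 and 13.2 to 3.72 and 4.07 FPKM (ratio 0.292, log2 change -1.55, SE 0.10, adjusted p 3.0e-05 by limma). Ob_16028 was at 5.73 and 6.65 FPKM in the controls and at 3.17 and 2.78 FPKM after chilling (log2 change -0.85). Its call was lost when any of the 4 libraries was left out (adjusted p from 0.021 to 0.038 by limma), and also under rescaling to equal sums. The third, Ob_13029, was too low for the test, at 0.35 and 0 FPKM in the controls and at 1.07 and 1.41 FPKM after chilling, above both controls. Its best hit in the wider NCBI database lay in *Oryza*, and its source was not tested.

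The third lower call, Ob_21518, was matched to PP2C 35 and was at 9.24 and 9.53 FPKM in the controls and at 3.03 and 3.93 FPKM after chilling (log2 change -1.22, adjusted p 3.6e-04 by limma). Without control replicate 1 its adjusted p was 0.019, and without control replicate 2 it was 0.021, so the call was lost in both fits. Ob_24369, with the same match, was at 21.7 and 20.9 FPKM in the controls and at 33.6 and 30.2 FPKM after chilling, a log2 change of 0.56 that was not called. Ob_33986, matched to PP2C 80, was under the 2-fold threshold, at 40.4 and 36.1 against 20.8 and 22.6 FPKM.

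The 31 unigenes whose best match was a rice protein had 22 tested members, with a median log2 change of 0.12. Of these, 3 (13.6%) were called higher and 1 (4.55%) lower, against 11.9% and 13.8% of all tested unigenes. Ob_25602, matched to rice PP2C 43, rose from 7.55 and 7.99 to 22.04 and 23.26 FPKM (2.92-fold, log2 change 1.43, SE 0.08, adjusted p 1.1e-05 by limma). The highest-expressed of them, Ob_24554, matched to rice PP2C 1, was at 106 and 100 FPKM in the controls and at 99.2 and 106 FPKM after chilling. Its groups overlapped, with a ratio of 0.994 and a 95% interval of the log2 change from -0.11 to 0.09, and after rescaling to equal sums its log2 change was 0.17 (adjusted p 0.015 by limma).

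In 13 of the rice matches the best hit in the wider NCBI database also lay in *Oryza*. These were weakly expressed, with a median level of 1.17 FPKM against 18.6 FPKM for the other 18, and 7 of them were tested. Ob_00032, matched to rice PP2C 64, was the only one of these called. It was at 3.54 and 3.28 FPKM in the controls and at 0.20 and 0.59 FPKM after chilling (log2 change -1.67, adjusted p 6.8e-04 by limma). The call was lost without control replicate 1 (adjusted p 0.018), control replicate 2 (0.017) or chilling replicate 1 (0.013). The source of the transcripts with best hits in *Oryza* in both databases was not tested. A rice match with its best hit elsewhere, Ob_06134 (rice PP2C 2), was called higher at 0.96 and 0.63 against 3.25 and 2.24 FPKM, and lost the call without any of the 4 libraries (adjusted p from 0.025 to 0.058 by limma).

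**Figure D4:**
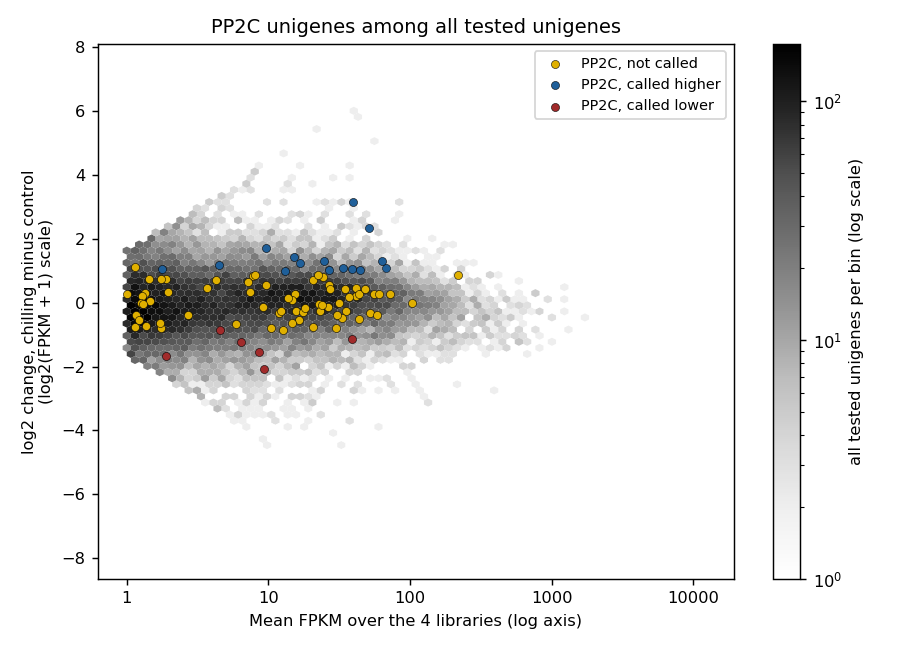
Log2 change after chilling (log2(FPKM + 1) scale) against mean FPKM over the 4 libraries (log axis) for all 33036 tested unigenes, shown as grey bins, with the 89 tested PP2C unigenes as points. Called PP2Cs occur at mean levels from 1.77 to 68.2 FPKM, and the PP2C at the far right, TAP38/PPH1 at 219 FPKM, was not called.

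By expression level, 4 of the 24 tested PP2Cs with a mean from 1 to 5 FPKM were called (2 in each direction), 7 of the 26 from 5 to 20 FPKM (4 higher, 3 lower), 7 of the 29 from 20 to 50 FPKM (6 higher, 1 lower) and 3 of the 10 above 50 FPKM (all higher). Over all unigenes of these levels, in the same order, 12.4%, 12.7%, 10.7% and 8.61% were called higher and 15.5%, 13.2%, 8.89% and 14.9% lower. The 17 PP2Cs below the filter had a summed level of 15.04 and 11.88 FPKM in the controls and 10 and 13.33 FPKM after chilling, so that nearly all of the family's signal lay in the tested unigenes.

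The difference between the group means of the summed level was 509 FPKM. It was made up of 738 FPKM over the 59 PP2Cs with a higher mean after chilling and -229 FPKM over the 47 with a lower one. The largest single differences were those of TAP38/PPH1 (129 FPKM), the EGR2 match Ob_18081 (70.4 FPKM), PP2C 63 (64.4 FPKM), AHG3/PP2CA (54.2 FPKM) and the PP2C 60 match Ob_21805 (49.5 FPKM).

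**Figure D5:**
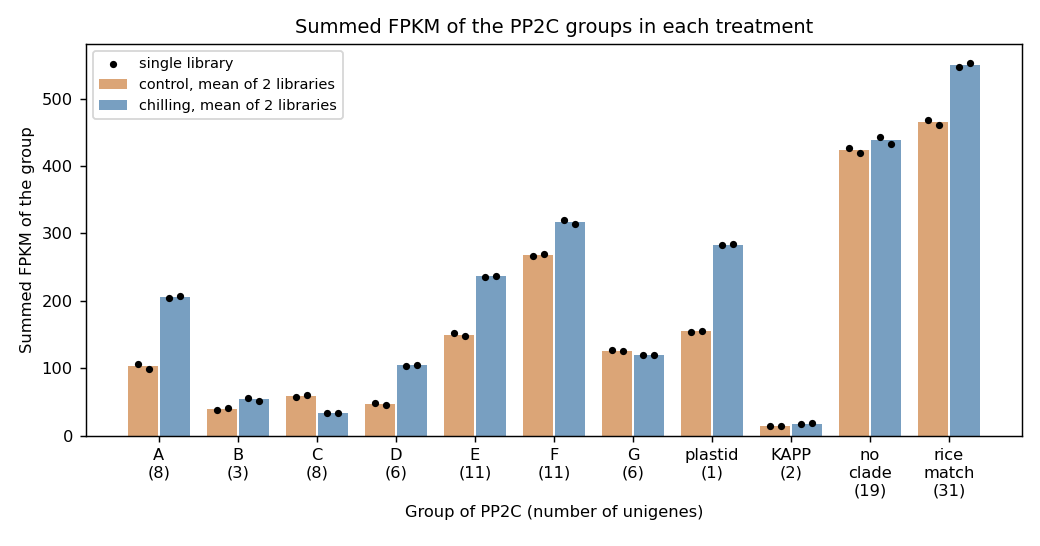
Summed FPKM of the PP2C unigenes of each group, as the mean of both libraries of a treatment (bars from 0) with the single libraries as points. Clade A doubled from a mean of 103 to 206 FPKM and clade C went from 59.4 to 34.02 FPKM, with single libraries close to their mean in each group.

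For comparison, other serine/threonine phosphatases were counted from their Swiss-Prot descriptions, a list that also caught regulatory subunits and activators. It had 69 tested unigenes, of which 7 (10.1%) were called higher and 1 (1.45%) lower, with a median log2 change of 0.05. Over all tested unigenes the shares were 11.9% higher and 13.8% lower. The higher share of this list was thus near that of all tested unigenes, and its lower share was below it. The lower call, Ob_00084, was matched to a regulatory subunit. Both lists had more higher than lower calls, and no test was made between them. Of the 21 PP2C calls, 13 higher and 3 lower ones were made in every fit that left out 1 library. The higher ones included the matches to PP2C 63 (Ob_30660), EGR2 (Ob_18081), AHG3/PP2CA (Ob_30311) and AP2C1 (Ob_34352). The lower ones were matches to PP2C 40 (Ob_34894), PP2C 27 (Ob_27220) and PP2C 55 (Ob_35600).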

How the data were processed

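The authors sequenced leaf RNA in paired ends on an Illumina instrument, removed PCR duplicates, assembled the pooled reads of the 4 libraries de novo with Trinity, represented each gene by its longest isoform (the unigene), and annotated the unigenes by BLASTX. They deposited FPKM per unigene and library, computed with RSEM and rounded to 2 decimals. Trinity and RSEM versions are not given in the sources used here. Their lists of regulated unigenes, which hold fold changes and p-values from edgeR and repeat the FPKM values in 8 columns, were not used. From the deposited FPKM, log2(FPKM + 1) was tested with limma 3.58.1 in R 4.3.3 (intensity trend, Benjamini-Hochberg over 33036 unigenes with a mean of at least 1 FPKM over the 4 libraries). A fold change on this scale understates the change of weakly expressed unigenes, and the ratios given are of mean FPKM without the added 1. The fit had 2 residual degrees of freedom. It was tested on simulated data. Samples were grouped by their titles. Replicate numbers did not pair the libraries: deviations from the group means correlated at r = 0.008 across unigenes between equal numbers, so no block was used. Unigenes named with values are all called PP2Cs, all matched to clade A, K14497, EGR, AP2C1, TAP38/PPH1, PBCP or KAPP, and the highest-expressed of each clade. Others with values, namely further matches to a protein already named, neighbours, partners with the largest changes and those near a threshold, were picked after their values were seen. The members, gene lists and thresholds were chosen with earlier results of these data known. Alternatives varied the pseudocount, filter, scaling, trend, block, thresholds, unigenes kept and libraries. The precision of FPKM values depends on read totals and unigene lengths, which were not used here. Between libraries of a group, the FPKM worth of 1 read differed by a ratio of 1.02 (controls) and 1.01 (chilling).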

Additional observations from a re-analysis of the deposited data

How the results depend on the processing

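No called PP2C changed its direction under any of the 14 alternatives. Between 13 and 22 PP2Cs were called higher (15 in the analysis reported) and between 3 and 10 lower (6 reported). At an adjusted p of 0.05, 10 were called lower. Leaving out 1 library gave 3 to 6 lower calls, with 3 when either control library was left out, and 13 to 14 higher calls, and the calls over all unigenes fell from 8465 to between 4052 and 4689, with 1 residual degree of freedom fewer. In these fits the remaining library of a group is assumed to vary like the other group. The median log2 change of the tested PP2Cs (0.20) ranged from 0.15 without chilling replicate 2 to 0.27 without control replicate 1. It was 0.35 with libraries rescaled to equal sums and 0.26 without unigenes whose best NCBI match was a grass. The ratio of summed FPKM (1.27) was 1.44 with equal sums and 1.29 with median ratio scaling. With equal sums, 7 further PP2Cs were called higher, TAP38/PPH1 and both HAB1 matches near 2-fold among them. Of the lower calls 2 were lost, and 1 was added, that of the EGR2 match Ob_41668 (log2 change -0.98). With the replicate number as a replicate block, 16 were called higher and 6 lower, and every call reported was kept. Ob_30597 and Ob_24554, neither of them called, changed sign with equal sums (-0.16 to 0.01 and -0.01 to 0.17). The counting error of unigenes near 1 FPKM was not computed.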
